A study of Mus musculus with 6 samples.

Results

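The genes described here are serum response factor (Srf), the 3 genes of its myocardin family of coactivators (Mkl1, Mkl2 and Myocd) and 6 genes for LIM-domain or actin-responsive cofactors (Tgfb1i1, Fhl1, Fhl2, Fhl3, Csrp1 and Filip1l). They were found by symbol, and the set was chosen with earlier results of these data known. All 10 were found among the 46603 genes of the count files, where the annotation writes Mkl1 as Mrtfa and Mkl2 as Mrtfb, and 9 of them had counts enough to be among the 15009 genes tested. The members that were tested had at least 108 counts in every library, so none of them passed the filter through 1 genotype alone. RNA had been sequenced from mouse embryonic fibroblasts (MEFs), 3 libraries from wild-type cells (WT) and 3 from beta-actin knockout cells (KO). Both genotypes are labelled as strain BALB/c, from embryos of 10.5 days, and all 6 libraries came from cells kept for 6 days in adipocyte differentiation medium, which holds insulin, dexamethasone, IBMX and ascorbic acid. The cells of both genotypes came from 1 laboratory, and how many embryos or clones stand behind each genotype, and whether the libraries of a genotype are separate cultures, is not given in the sources used here. The p-values therefore measure the spread between these libraries, which may be technical, and what differs between the 2 cell populations apart from Actb cannot be told apart from the genotype.

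SRF is a transcription factor of the MADS-box family that binds the CArG box, a DNA element with an A and T core between CC and GG. It activates contractile and cytoskeletal genes when it is joined by the MRTF proteins, the products of Mkl1 and Mkl2, and immediate early genes when it is joined by ternary complex factors of the ETS family. Monomeric actin binds MRTFs and holds them outside the nucleus, and growth of actin filaments releases them. Myocardin, the product of Myocd, is the member of the family found in cardiac and smooth muscle. LIM domains are zinc-binding folds that join proteins together at focal adhesions, on actin filaments and in the nucleus.

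Library totals ran from 26955708 to 38619711 counts. Actb was at 1820 to 1904 CPM (counts scaled to library size, with library sizes adjusted by the TMM method) in WT and at 10.4, 58.9 and 50.3 CPM in KO replicates 1, 2 and 3. KO replicate 1 stood apart from the other KO libraries. A chi-square over genes per degree of freedom was 158 and 155 between it and KO replicates 2 and 3, against 24.1 between those and 15.8 to 29.2 between WT libraries. Between WT libraries and KO replicates 2 and 3 it was 150 to 172, about the distance of KO replicate 1 from the other KO libraries. Between WT libraries and KO replicate 1 it was 253 to 275. The cells carried fibroblast markers: all 12 were tested, 8 were higher and 1 lower in KO, and their summed level ran from 3329 to 4174 CPM in WT and from 7898 to 10786 in KO. Vim and Fn1 were at 605 ± 66.8 and 2109 ± 314 CPM in WT (SD, n = 3), while Thy1 was counted 0, 1 and 0 times in the WT libraries and 20, 13 and 17 times in the KO libraries. Col1a2, Lum and S100a4 were also low in WT, at means of 0.300, 0.298 and 0.951 CPM, against 6.00, 4.73 and 2.32 in KO. All other fibroblast markers had WT means of 22.0 CPM (Pdgfra) or higher. Of 9 smooth muscle and pericyte markers 7 were tested, with 3 higher and 1 lower in KO, and their summed level ran from 222 to 295 CPM in WT and from 317 to 342 in KO. The defining smooth muscle gene Myh11 was at 0.760 ± 0.104 CPM in WT and 0.815 ± 0.172 in KO, and its log2 fold change was 0.10 (adjusted p = 0.825). The higher genes of this list were Smtn, Des and Rgs5 (0.86, 1.10 and 2.51 log2). The lower one was Cspg4 (-6.55 log2), at a mean of 34.5 CPM in WT and 0.354 in KO. The skeletal muscle determination genes Myod1, Myog, Myf5 and Myf6 had at most 3 counts in any library. The 1 skeletal muscle marker that was tested of 9, Tnnt3 for a fast troponin T, was counted 3 or 4 times in WT and 16 to 28 times in KO and was called higher (2.67 log2, adjusted p = 0.00483), and Acta1, for skeletal actin, was counted 36 times in KO replicate 1 and at most 9 times elsewhere. Of 7 epithelial markers 4 were tested, and their list had a summed level of 5.34 to 10.8 CPM in WT and 31.1 to 53.5 in KO. The keratin genes Krt18 and Krt19 and the factor gene Grhl2 were higher (5.52, 2.66 and 2.25 log2, adjusted p = 0.000875, 0.00197 and 0.029), while Epcam was called lower, with 34 to 48 counts in WT and 0 in every KO library. Among tested markers, 0 of 2 cardiac, 0 of 3 macrophage and 0 of 5 endothelial genes were higher, and 1 endothelial gene was lower. Of 8 adipocyte markers 4 were tested, with 2 higher and 1 lower in KO and a summed level of 27.3 to 36.2 CPM in WT and 177 to 285 in KO, while the defining gene Adipoq, for adiponectin, had at most 1 count in any library. Mean Lpl went from 2.74 CPM in WT to 142 in KO and Pparg from 16.0 to 26.6, while Cebpa fell from 5.59 to 0.290. Fabp4, which was not called, was at 109, 8.60 and 16.2 CPM in KO replicates 1, 2 and 3. The part of these marker differences in the results was not tested. In bulk RNA, a change in the number of cells of a type and a change in RNA per cell cannot be told apart.

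In beta-actin knockout cells 5 of the 9 tested genes were higher than in wild-type cells, and 0 were lower. Fhl1 rose most, 27.6-fold, followed by Csrp1 (3.01-fold), Fhl2 (2.87-fold), Tgfb1i1 (2.43-fold) and Srf (1.56-fold). The coactivator genes Mkl1 and Mkl2, the cofactor gene Fhl3 and Filip1l did not pass the test, and Myocd was close to the limit of detection in both genotypes. Over all tested genes 13.8% were called higher in KO and 14.5% lower (28.3% in either direction) by the quasi-likelihood test of edgeR at a Benjamini-Hochberg adjusted p below 0.05. With library totals in place of TMM scaling the calls over all genes were 1351 higher and 3347 lower, against 2074 and 2181, and the median log2 fold change of all genes moved from 0.01 to -0.19. The median of the 9 members was 0.65 log2, against 0.01 over all tested genes. Under TMM scaling all KO libraries lay above all WT libraries for 7 of the 9 members, against 23.8% of all tested genes. With library totals the genotypes overlapped for Mkl1 and Mkl2, which are among the 7. The members were chosen with earlier results of these data known, so these counts and the median are no independent evidence.

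**Figure D1:**
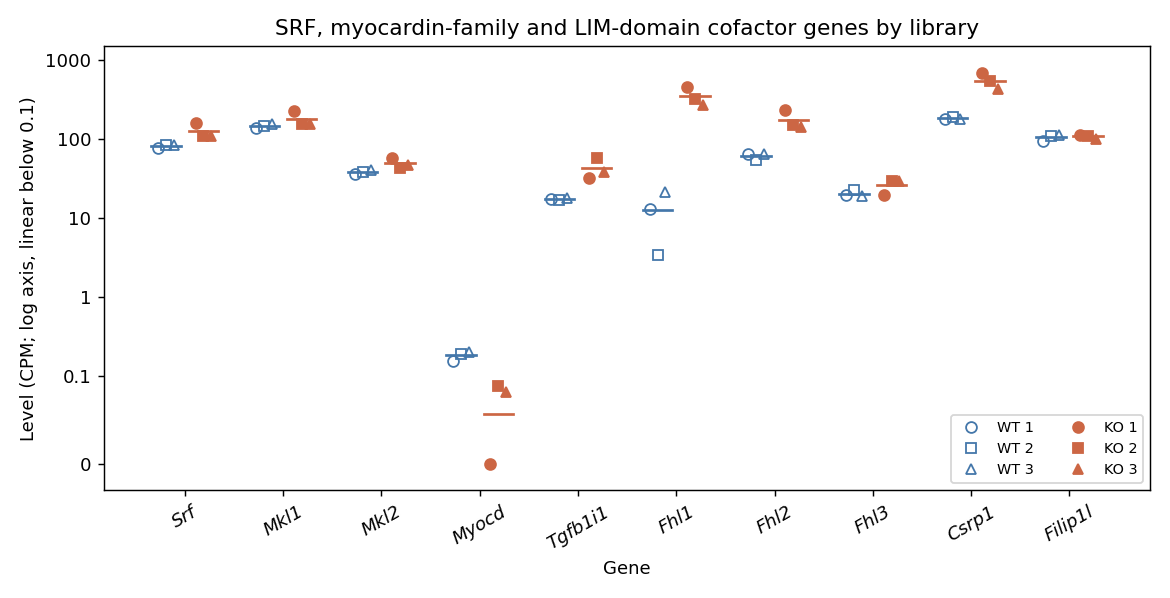
Level of each gene in CPM in each of the 6 libraries (log axis, linear below 0.1), with WT as open blue symbols, KO as filled orange symbols, 1 symbol shape per replicate number and a line at each group mean. Fhl1 shows the widest gap between genotypes, 3.39 to 21.5 CPM in WT against 272 to 448 in KO, while the Filip1l values of the genotypes overlap.

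Promoter windows were searched for the element that SRF itself binds. The windows come from RefSeq (GRCm38.p6), each 300 bases with 250 before a start site and 50 after it, and 15 windows matched 8 of the 10 genes. Tgfb1i1, which was called higher, and Myocd had no window, and bases outside the windows were not searched. The windows printed are those with a complete CArG box, printed 5′ to 3′ on the gene's strand for the 250 bases before the start site. Capitals mark a CArG box, or a CArG box with 1 mismatch in its CC or GG ends. The windows are chr17:46556163-46556412 (minus strand) for Srf, chrX:56779433-56779682 (plus) for Fhl1, chr1:43196762-43197011 (minus) for Fhl2 start site 1, chr1:43163962-43164211 (minus) for Fhl2 start site 2 and chr16:57548992-57549241 (plus) for Filip1l.
Srf: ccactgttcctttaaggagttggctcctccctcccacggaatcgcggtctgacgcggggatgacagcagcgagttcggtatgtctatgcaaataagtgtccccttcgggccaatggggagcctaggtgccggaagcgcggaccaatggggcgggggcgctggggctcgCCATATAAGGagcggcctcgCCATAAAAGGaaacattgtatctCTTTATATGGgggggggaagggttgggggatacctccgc
Fhl1: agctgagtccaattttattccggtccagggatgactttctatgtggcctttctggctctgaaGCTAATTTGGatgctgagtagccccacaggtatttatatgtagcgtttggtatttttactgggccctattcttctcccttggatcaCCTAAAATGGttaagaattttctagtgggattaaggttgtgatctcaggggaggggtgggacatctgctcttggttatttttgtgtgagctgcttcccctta
Fhl2 start site 1: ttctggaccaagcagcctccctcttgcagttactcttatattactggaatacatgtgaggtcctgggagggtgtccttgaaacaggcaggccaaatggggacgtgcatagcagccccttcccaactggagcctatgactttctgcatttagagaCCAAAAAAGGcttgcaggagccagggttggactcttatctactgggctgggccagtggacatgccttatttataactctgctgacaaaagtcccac
Fhl2 start site 2: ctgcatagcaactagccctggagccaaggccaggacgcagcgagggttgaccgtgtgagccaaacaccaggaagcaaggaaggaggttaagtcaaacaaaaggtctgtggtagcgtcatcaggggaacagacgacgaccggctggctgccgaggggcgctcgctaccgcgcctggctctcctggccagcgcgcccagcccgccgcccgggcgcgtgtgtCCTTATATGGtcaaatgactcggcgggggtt
Filip1l: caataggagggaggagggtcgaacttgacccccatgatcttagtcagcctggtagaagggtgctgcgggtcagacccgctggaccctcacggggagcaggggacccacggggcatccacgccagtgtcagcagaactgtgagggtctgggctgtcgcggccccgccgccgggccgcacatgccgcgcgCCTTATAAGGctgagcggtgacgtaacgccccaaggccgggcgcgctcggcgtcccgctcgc
The Srf window holds 2 complete boxes, CCATATAAGG and CCATAAAAGG, which begin 82 and 62 bases before the start site, and 1 with a mismatch at 39 bases, CTTTATATGG. In Fhl1 the complete box is CCTAAAATGG at 102 bases, and the forms with a mismatch are GCTAATTTGG at 188 bases and CCTTAAATGT at 5 bases, the last running past the start site and so not in capitals. The Fhl2 windows hold CCAAAAAAGG at 96 bases and CCTTATATGG at 31 bases, and the Filip1l window holds CCTTATAAGG at 62 bases. The Fhl1 window, Fhl2 start site 2 and the Filip1l window lie inside the annotated gene bodies. The window of Fhl2 start site 1 reaches past the annotated gene boundary at 43196984, but its CArG box lies inside the gene. Counts per gene do not show which start site was used. The CArG box was found in 5 of the 15 windows and in 1.63% of all 32851 windows of the table. The form with 1 mismatch was in 12.6% of all windows. The TEAD site CATTCC, searched on both strands, was in 14.7% of all windows and among these genes only in 1 window, of Mkl2. The complete box was found in a window of 3 genes called higher (Srf, Fhl1 and Fhl2) and of 1 that was not called (Filip1l). It was not found in the windows of Csrp1, which was called, or of Mkl1, Mkl2 and Fhl3, which were not. These matches describe letters in these windows, not binding.

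Srf (ENSMUSG00000015605, chromosome 17, 46548329 to 46556175, GRCm38, minus strand), the DNA-binding factor of the group, was moderately higher in KO. Its level was 76.2, 82.8 and 83.6 CPM in WT replicates 1, 2 and 3, and 161, 109.6 and 109 in KO replicates 1, 2 and 3. All KO libraries lay above all WT libraries, with KO replicate 1 apart from the other two. The log2 fold change was 0.65 (SE 0.19, n = 3 per group, adjusted p = 0.0262 with edgeR). Without KO replicate 1 it was 0.44 (adjusted p = 0.00378). Srf missed the threshold when WT replicate 1 (adjusted p = 0.0994), WT replicate 2 (0.0877) or WT replicate 3 (0.0792) was left out, with library totals (0.43 log2, 0.0604) and with the replicate number as a block (0.62 log2, 0.0622).

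The coactivator genes differed less. Mkl1 (ENSMUSG00000042292, chromosome 15, 81012281 to 81190757, minus strand), which encodes MRTF-A, was at 136, 144 and 153 CPM in WT and 225, 156 and 155 in KO. KO replicates 2 and 3 lay just above the highest WT library, and KO replicate 1 was far higher. With library totals in place of TMM scaling, KO replicates 2 and 3 (150 and 147 CPM) lay below WT replicate 3. The log2 fold change was 0.31 (SE 0.19, adjusted p = 0.203), or 0.11 without KO replicate 1 (adjusted p = 0.343). Mkl2 (ENSMUSG00000009569, chromosome 16, 13256481 to 13417529, plus strand), which encodes MRTF-B, was at 36.2, 38.0 and 40.9 CPM in WT and 57.3, 43.4 and 46.3 in KO. The genotypes did not overlap under TMM scaling, but the log2 fold change of 0.35 (SE 0.13) missed the threshold (adjusted p = 0.0964). With library totals, KO replicates 2 and 3 of Mkl2 (41.9 and 44.1 CPM) lay below WT replicate 3. Exons of Mkl1 share 10 bases with Sgsm3 and those of Mkl2 share 162 bases with Gm15738, in both cases on the opposite strand. Myocd (ENSMUSG00000020542, chromosome 11, 65176561 to 65269989, minus strand) was counted 5, 6 and 6 times in the WT libraries and 0, 3 and 3 times in the KO libraries. Where no read is seen, up to 3 counts could still be expected, which is 0.0816 to 0.113 CPM depending on the library. The KO libraries were at or under that floor, so no fold is given.

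Per length of exon, the balance between the coactivator genes was nearly the same in both genotypes. Mkl1 made up 84.6% ± 0.0699 of the summed reads per kb of Mkl1, Mkl2 and Myocd in WT and 84.1% ± 1.10 in KO (SD, n = 3). The difference of -0.486 percentage points was within the spread of the KO libraries (exact permutation test, two-sided, p = 0.7), and it was 0.0445 without KO replicate 3. The summed level of the 3 genes was 27.9 ± 1.69 RPKM (CPM divided by kb of exon) in WT and 34.7 ± 7.38 in KO.

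The FHL genes encode small proteins made almost wholly of LIM domains. FHL2 is a cofactor of several transcription factors and a known MRTF and SRF target, and FHL1 is abundant in striated muscle. Fhl1 (ENSMUSG00000023092, chromosome X, 56731787 to 56793346, plus strand) was counted 411, 108 and 637 times in the WT libraries and 11937, 10842 and 10000 times in the KO libraries. On the CPM scale this was 12.9, 3.39 and 21.5 against 448, 321 and 272. The lowest KO library lay far above the highest WT library, and the WT libraries themselves spread widely. On the log2 scale KO exceeded WT by 4.79 (SE 0.82, adjusted p = 0.00155). Leaving out WT replicate 3, the highest WT library, gave 5.41 (adjusted p = 0.00554), and leaving out WT replicate 2, the lowest, gave 4.33 (adjusted p = 0.00112).

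Fhl2 (ENSMUSG00000008136, chromosome 1, 43123074 to 43196984, minus strand) was at 65.0, 53.6 and 65.0 CPM in WT and 234, 152 and 142 in KO. Every KO library was above every WT library. This gave a log2 fold change of 1.52 (SE 0.24, adjusted p = 0.00184). Fhl3 (ENSMUSG00000032643, chromosome 4, 124700701 to 124708611, plus strand) was at 19.3, 22.3 and 18.9 CPM in WT and 19.3, 29.6 and 29.5 in KO. Here KO replicate 1 lay among the WT libraries and the other KO libraries above them. The difference was 0.37 log2 (SE 0.22, adjusted p = 0.187), or 0.55 without KO replicate 1 (adjusted p = 0.00478). Of the 50-base stretches in Fhl3 transcripts 4.63% also occur in Gm13898, a processed pseudogene with at most 2 counts in any library.

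Because these genes moved by different amounts, the makeup of their transcript pool was set side by side in the genotypes. The pool leaves out Fhl4 and Fhl5. Fhl4 was at 3.11 ± 0.460 CPM in WT and 1.33 ± 0.783 in KO and was not called (-1.21 log2, adjusted p = 0.0952 with edgeR). Without KO replicate 1 it was called lower (-0.82 log2, adjusted p = 0.0269). Fhl1 was 7.06%, 2.15% and 11.3% of the summed reads per kb of Fhl1, Fhl2 and Fhl3 in WT and 47.3%, 47.0% and 44.2% in KO. Fhl2 made up 67.7% ± 1.70 of the pool in WT and 45.6% ± 2.44 in KO, and Fhl3 25.5% ± 5.03 and 8.21% ± 3.26, although neither gene was called lower. The groups did not overlap for any of these 3 shares, and each had p = 0.1 in the exact permutation test, two-sided, the smallest that 3 against 3 libraries can give (adjusted p = 0.15 over 9 shares). The summed level was 47.7 ± 4.65 RPKM for WT libraries and 202 ± 47.3 for KO libraries, 4.23 times as much (exact permutation p = 0.1).

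**Figure D2:**
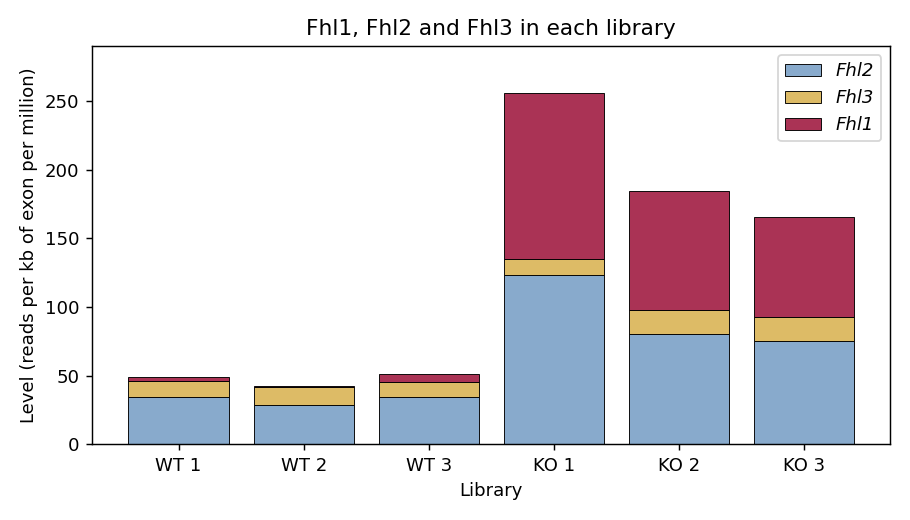
Stacked level of Fhl2 (blue), Fhl3 (yellow) and Fhl1 (red) in each library, in RPKM. The summed level is 42.4 to 51.3 in WT and 166 to 255 in KO, and the Fhl1 part grows from at most 5.79 in WT to at least 73.2 in KO.

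Csrp1 (ENSMUSG00000026421, chromosome 1, 135720061 to 135752232, plus strand) encodes a cysteine-rich LIM protein of smooth muscle that binds alpha-actinin and zyxin. It was at 180, 190 and 176 CPM in WT and 674, 544 and 425 in KO. The WT libraries were close together, and every KO library lay well above them. It rose by 1.59 log2 (SE 0.19, adjusted p = 0.000854), with the smallest p of the 9 tested members. Its relative Csrp2 was at 61.0 ± 9.64 CPM in WT and 93.0 ± 24.0 in KO (log2 fold change 0.61, adjusted p = 0.0599), and Csrp3, the muscle LIM protein gene, had at most 1 count in any library. The share of Csrp1 in the summed reads per kb of the 3 genes was 76.9% ± 2.97 in WT and 86.8% ± 0.524 in KO (exact permutation p = 0.1, adjusted p = 0.15). The genes with the most similar course to Csrp1 over the 6 libraries were Prkar2b, a regulatory subunit of protein kinase A (Pearson r = 0.998), Tagln, the actin-binding transgelin (0.997), and Tank (0.996). They are a description over 6 libraries in 2 groups, since 493 of 10180 genes compared had r above 0.95.

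Tgfb1i1 (ENSMUSG00000030782, chromosome 7, 128246812 to 128255699, plus strand) encodes Hic-5, a focal adhesion LIM protein related to paxillin that also acts in the nucleus. Its level was 17.5, 16.9 and 18.1 CPM in WT and 32.3, 56.7 and 38.3 in KO. KO replicate 2 was the highest, and the lowest KO library was KO replicate 1, where Srf, Fhl1, Fhl2 and Csrp1 were highest. KO exceeded WT by 1.28 log2 (SE 0.24, adjusted p = 0.00432). Paxillin itself (Pxn) was at 150.2 ± 7.17 CPM in WT and 122 ± 5.14 in KO, with every KO library below every WT library (log2 fold change -0.31, adjusted p = 0.0572). Without KO replicate 1 Pxn passed the test (-0.34 log2, adjusted p = 0.0127). Tgfb1i1 was 14.5% ± 0.884 of the summed reads per kb of Tgfb1i1, Pxn and Lpxn in WT and 33.1% ± 6.71 in KO (exact permutation p = 0.1, adjusted p = 0.15), while the summed level was 21.7 ± 0.725 and 22.7 ± 2.13 RPKM.

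Filip1l (ENSMUSG00000043336, chromosome 16, 57353093 to 57573126, plus strand), which encodes a relative of the filamin A interacting protein, showed no detectable difference. It was at 94.3, 109 and 112 CPM in WT and 114, 110.4 and 100.3 in KO. The genotypes overlapped, and the log2 fold change was 0.04 (SE 0.09, adjusted p = 0.816), with a negative sign under upper-quartile scaling, library totals or without WT replicate 1. Its relative Filip1 had at most 2 counts in any library.

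**Figure D3:**
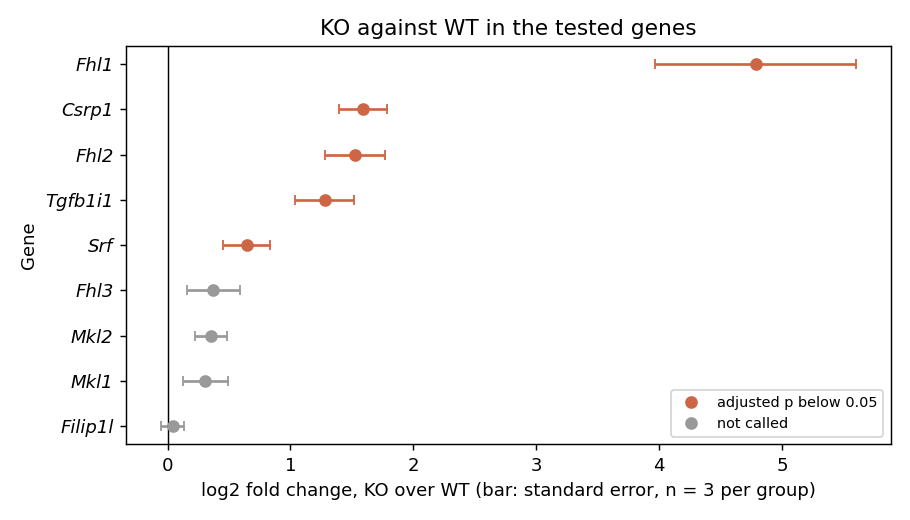
Log2 fold change, KO over WT, of the 9 tested genes, with the standard error of the difference in mean log2 CPM (n = 3 per group); orange points have an adjusted p below 0.05 and grey points do not. Fhl1 stands at 4.79, a group of Csrp1, Fhl2 and Tgfb1i1 between 1.28 and 1.59, and Srf at 0.65.

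Per length of exon, the order of the genes was Csrp1, Fhl2, Srf, Mkl1, Filip1l, Fhl3, Mkl2, Fhl1, Tgfb1i1 and Myocd in WT. Csrp1 was at 93.2 ± 3.66 RPKM and Tgfb1i1 at 3.13 ± 0.104. The WT libraries of Fhl2 and Srf overlapped, as did those of Fhl1 with its neighbours Mkl2 and Tgfb1i1. In KO Fhl1 moved from place 8 to place 2, at 93.5 ± 24.5 RPKM, where its libraries overlapped those of Fhl2 at 92.7 ± 26.5. Tgfb1i1 (7.60 ± 2.27) and Mkl2 (5.45 ± 0.816) changed places and also overlapped. The other neighbours did not overlap in KO. These orders use merged exon lengths, and the places of close genes depend on that choice. Merged exons and the longest transcript have 6114 and 4392 bases for Mkl1, and 2893 and 2616 for Srf. For Tgfb1i1 they have 5585 and 3788 bases. Per base of longest transcript, the WT mean of Mkl1 would lie above Srf, and that of Tgfb1i1 above Fhl1.

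Among the KO libraries the genes did not all vary together. How many of all tested genes had KO replicate 1 highest or lowest was not counted, so the pattern is not shown to be particular to these genes. KO replicate 1, which had the least Actb, was the highest KO library for Srf, Mkl1, Mkl2, Fhl1, Fhl2 and Csrp1 and the lowest for Tgfb1i1 and Fhl3, under TMM, RLE, upper-quartile and library-total scaling. Without this library 6 members were called higher, Fhl3 in addition to the 5.

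**Figure D4:**
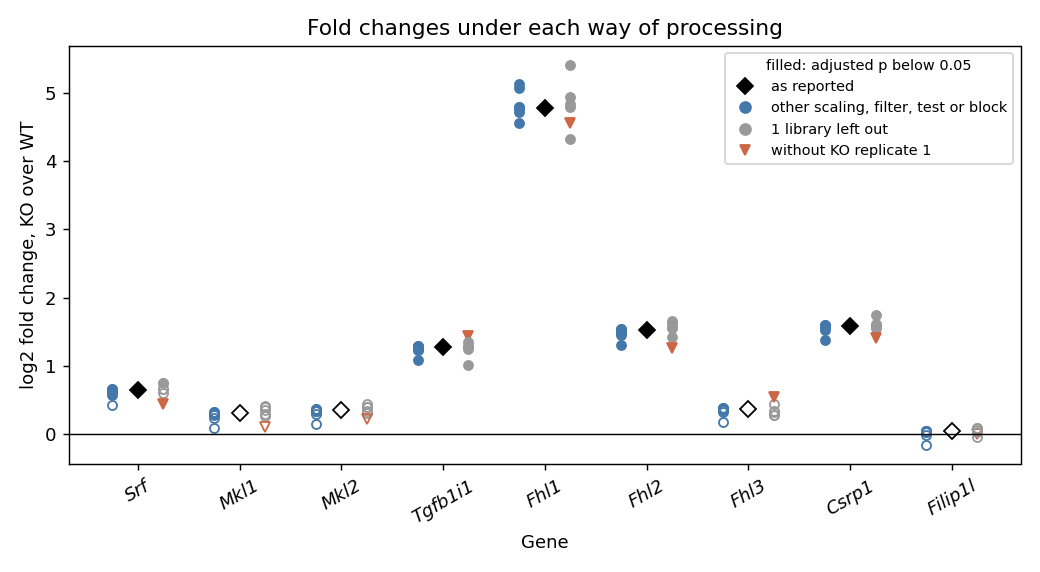
Log2 fold change, KO over WT, of each tested gene as reported (black diamonds), with another scaling, filter, test or block (blue), with 1 library left out (grey) and without KO replicate 1 (orange triangles); filled symbols have an adjusted p below 0.05. Fhl1, Fhl2, Csrp1 and Tgfb1i1 stay filled in all 15 alternatives, and Srf is open in 5 of them.

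The rest of the pathway was read from lists that were drawn up with earlier results of these data known. Of 11 partner factors that bind DNA or SRF itself, 9 were tested and 1 rose, a share near the 13.8% of all tested genes that were called higher. It was Hopx, which encodes a homeodomain-only protein that inhibits SRF, at 2.74 ± 1.21 CPM in WT and 7.22 ± 1.24 in KO, and it rose by 1.40 log2 (SE 0.38, adjusted p = 0.0198). Hopx missed the threshold when WT replicate 2 was left out (adjusted p = 0.0707) or WT replicate 3 (0.0818), which leaves 0 higher genes in the list. Without KO replicate 1 the cardiac factor gene Gata4 was called lower (-0.55 log2, adjusted p = 0.00302). The ternary complex factor genes Elk1, Elk3 and Elk4 had log2 fold changes of 0.15, -0.19 and 0.10 and were not called. The median of the list was 0.09 log2, against 0.01 over all tested genes.

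Of 12 tested genes that control where MRTFs lie and how active they are, 3 rose and 1 fell, with a median of 0.01 log2. Over all tested genes 13.8% were called higher and 14.5% lower. Mical2, an actin-oxidising enzyme that acts on nuclear actin, was at 35.6 ± 0.632 CPM in WT and 66.1 ± 14.7 in KO, a rise of 0.89 log2 (SE 0.18, adjusted p = 0.00664). The importin gene Kpna2 rose by 0.55 log2 (adjusted p = 0.0223), from 217 ± 30.8 CPM in WT to 318 ± 21.9 in KO. The third higher gene was Flna, for the actin crosslinker filamin A (1.07 log2, adjusted p = 0.0429), at 725 to 791 CPM in WT and at 821, 2204 and 1743 in KO replicates 1, 2 and 3. Mical2 kept its call in every alternative. For Kpna2 the adjusted p was 0.0901 and 0.0702 when WT replicate 2 or 3 was left out, 0.0503 and 0.073 when it was KO replicate 2 or 3, 0.091 with library totals and 0.0653 with the replicate block. Flna lost its call without any 1 library but KO replicate 1 (0.0933 to 0.14), and with upper-quartile scaling, library totals, limma-voom or the replicate block (0.0568 to 0.0857). The list had 1 higher gene without WT replicate 2, WT replicate 3, KO replicate 2 or KO replicate 3, with library totals or with the replicate block. When any 1 library but KO replicate 1 was left out, it had 0 lower genes. Of the filamins and Filip1, Flna was the only one called of 3 tested, so that list had 0 higher genes in the fits where Flna lost its call.

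The targets of SRF were listed by the partner they are known for. Of 23 tested cytoskeletal targets of MRTF and SRF 18 rose and 0 fell (20 with an unadjusted p below 0.05, all higher), with a median of 1.27 log2. The shares over all tested genes were 13.8% called higher and 14.5% lower. Cnn1, for calponin, and Actg2, for smooth muscle gamma-actin, had the smallest p, with log2 fold changes of 7.86 and 9.51 (adjusted p = 1.93e-05 and 3.23e-05). Their WT libraries held 18 to 29 and 5 to 10 counts, and their KO libraries 4917 to 6234 and 5061 to 7714. Of 10 tested immediate early targets of SRF and ternary complex factors edgeR called 0 in either direction, with 3 at an unadjusted p below 0.05, all higher, and a median of 0.06 log2. DESeq2 called 1 higher and limma-voom 0, and without the filter edgeR called 1 higher. Leaving out WT libraries 1 at a time gave 0 calls in this list, and leaving out KO replicate 1, 2 or 3 gave 1, 2 and 1 higher, with 1 lower without KO replicate 1. Whether the lists differ from each other was not tested. The cytoskeletal list was drawn up with a similar result of these data known, so its count is no independent evidence.

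Among 26 other tested LIM-domain genes, 8 rose and 3 fell, with a median of 0.28 log2. Over all tested genes the shares were 13.8% higher and 14.5% lower. Fblim1, for migfilin, which binds filamin, rose 2.84-fold (adjusted p = 0.000402), its mean going from 43.6 ± 2.48 CPM to 124 ± 20.1. Lima1, for the actin-bundling protein EPLIN, rose by 0.86 log2 (SE 0.08, adjusted p = 0.00184). Crip1, for a small cysteine-rich LIM protein, fell by 5.63 log2 (SE 0.50, adjusted p = 0.000328), being counted 314, 273 and 184 times in the WT libraries and 3, 2 and 11 times in the KO libraries, and was at -6.55 without KO replicate 3. Pdlim4, for a PDZ and LIM protein of actin filaments, fell by 2.60 log2 (SE 0.30, adjusted p = 0.000486), its mean going from 67.6 ± 4.56 CPM to 11.2 ± 4.18. These 4 genes kept their calls in every alternative. The list had 4 higher genes without WT replicate 1 or WT replicate 2, 6 lower without KO replicate 1, and 5 lower with library totals or DESeq2.

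**Figure D5:**
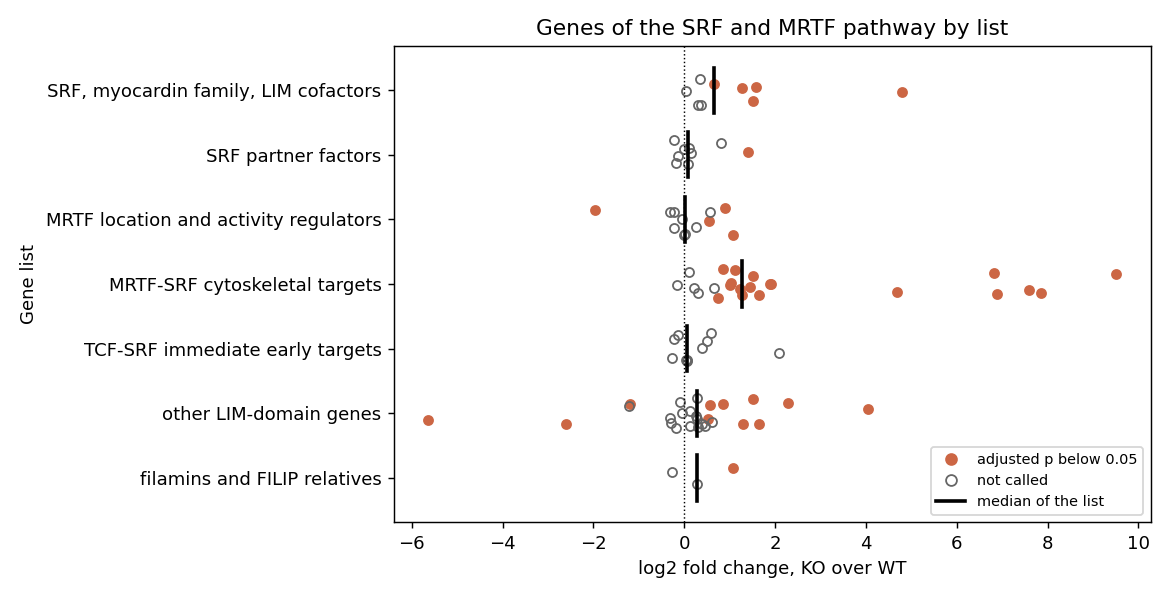
Log2 fold change, KO over WT, of each tested gene by list, filled where the adjusted p is below 0.05, with a bar at the median of the list. The cytoskeletal targets reach 9.51 with a median of 1.27, while the immediate early targets have a median of 0.06 and no filled point.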

How the data were processed

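RNA sequencing of 6 libraries was used, 3 WT and 3 KO, grouped by their titles. The authors deposited unnormalized counts of reads for each Ensembl gene. HTSeq, TopHat2 2.1.0, the build GRCm38.p4 and DESeq2 are named, with no order, in the submitters' processing notes. Annotation release and strand setting: not given in the sources used here. Symbols, positions and exon lengths came from GENCODE M21 (GRCm38), which matched 46091 of 46603 identifiers.

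Counts were filtered with filterByExpr and scaled with TMM. The contrast of KO against WT used the edgeR 4.0.16 quasi-likelihood F test, two-sided (R 4.3.3), adjusted over 15009 genes. The test was checked on simulated data. Standard errors are those of the difference in mean log2 CPM. Shares within a family used counts per kb of merged exons and an exact permutation test (SciPy 1.17.1). Alternatives included DESeq2 1.42.0 and limma-voom 3.58.1. All members are described; the text names from each list the 2 called genes with the smallest p in each direction, the relatives used for family shares, and the 3 genes most like the called member with the smallest p, while other genes were named after their values were seen. The members and lists were chosen with earlier results of these data known. Replicate numbers were not used as a block, since the labels do not pair the libraries. A few genes and 1 gene list are not reported here.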

Additional observations from a re-analysis of the deposited data

How the results depend on the processing

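The number of members called higher was 4 or 5 in 9 alternatives that kept all libraries and 4 to 6 when 1 library was left out, and 0 were called lower in any of these 15. Tgfb1i1, Fhl1, Fhl2 and Csrp1 kept their calls in all 15. Fhl3 gained a call without KO replicate 1. The log2 fold change of Filip1l was -0.0192 with upper-quartile scaling, -0.165 with library totals and -0.0387 to 0.0964 with 1 library left out. The Mkl1 share of its family changed by -1.05 to 0.0445 percentage points with 1 library left out. Over all genes, library totals gave 1351 higher and 3347 lower calls, and leaving out 1 library gave 1003 to 3075 higher and 1295 to 3462 lower; fits without a library have fewer samples. With the replicate number as a block 4 members were called higher and Srf was at 0.62 log2 (adjusted p = 0.0622). The block changed no other call of a member. Deviations of equally numbered libraries from their group means correlated at -0.101, 0.046 and -0.148 over genes. Unequally numbered libraries were not compared, so these values cannot decide whether the numbers pair the libraries. Without the filter Myocd could be fitted and was not called (adjusted p = 0.239 with edgeR). Depth limits Myocd, Csrp3 and Filip1, which had at most 6 counts in any library.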
